A study of Mus musculus with 2 samples.

Results

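The Rfx6 peaks examined were those at the starts of long noncoding RNAs. A peak was a member when its summit, the position of highest signal, lay within 2 kb of a transcript start of a GENCODE M1 gene of type lincRNA, antisense or processed_transcript, and more than 1 kb from every protein-coding transcript start. Of the 23308 peaks, 345 met this rule (1.48%, 95% Wilson interval 1.33 to 1.64%), and 0.536% of the genome on the same chromosomes meets it. They lay at 328 genes, counting the nearest start of each. Genes of type processed_transcript held 203 members and lincRNA genes held 142. The annotation gives no gene the type antisense, but 106 members lay nearest to a transcript of that type. A further 374 of the 719 peaks within 2 kb of a long noncoding RNA start were left out because a protein-coding start lay within 1 kb.

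The study mapped the DNA bound by Rfx6 in Min6b1 cells, an insulin-secreting line of mouse β cells grown in 25 mM glucose. In the 3HA-Rfx6 sample, the cells were transfected with 24 µg of the plasmid pCMV-Tag2A-3HA-Rfx6 and harvested after 2 days, and the tagged protein was precipitated with the anti-HA antibody 12CA5. The control was ChIP with the same antibody on cells described as Min6b1 cells, although its growth protocol repeats the text of the transfection. There was 1 library per condition, so the values have no replicate error, and intervals cover counting error only. The plasmid drives Rfx6 from a CMV promoter by transient transfection, so the peaks are those of an over-expressed, tagged protein in a single cell line. Expression was not measured in these libraries, and neither the cell type nor the transcription of any long noncoding RNA named here could be checked. The 3HA-Rfx6 library retained 33949757 reads and the control 3567375, and the control enters the values only through the background of the peak caller. The members held 37508 reads, which is 0.11% of the retained 3HA-Rfx6 reads.

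Rfx6 belongs to the RFX family of transcription factors, which bind the X-box, a pair of inverted half-sites, as dimers. It acts in the development of pancreatic endocrine cells and in mature β cells. Long noncoding RNAs are transcripts without a recognised reading frame. Some are the primary transcripts from which microRNAs are cut, some lie antisense to coding genes, and many have no known function. A microRNA silences messenger RNAs that pair with its seed, the bases near its 5′ end.

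X-boxes close to the summits of members are shown, since the X-box is the known binding sequence of the family. They are the pairs within 20 bp of the summit at the 10 such members with the most reads, with the site of the member of highest fold enrichment and that of a microRNA gene added. The pattern searched as an X-box pair was GTNNCC, a spacer of 0 to 3 bases and GGNNAC, which is its own reverse complement. A strict X-box with fixed purine and pyrimidine positions, which overlaps this pattern, was searched on both strands as an alternative. Sites are in capitals with 20 bases to either side, read from the plus strand of NCBIM37 (mm9). The site of Gm10044 (chr14:8624286-8624338) is a strict X-box, and the others are pairs. They are those of 9330175E14Rik (chr8:96957862-96957915), 1700016P03Rik (chr11:74987157-74987210), Gm15418 (chr8:11188028-11188080), Gm15751 (chr5:123958657-123958709), 9130204K15Rik (chr11:79597184-79597237), 1700001G11Rik (chr14:66913898-66913951), Gm16760 (chr10:6978045-6978098), Gm13055 (chr4:140823202-140823254), Gm10433 (chr12:101424779-101424832), G730013B05Rik (chr16:50527389-50527441) and Gm13648 (chr4:155435602-155435654).
Gm10044: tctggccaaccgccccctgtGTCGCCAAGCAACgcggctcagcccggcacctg
9330175E14Rik: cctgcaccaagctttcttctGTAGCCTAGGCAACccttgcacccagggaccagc
1700016P03Rik: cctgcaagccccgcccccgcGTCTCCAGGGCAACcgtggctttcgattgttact
Gm15418: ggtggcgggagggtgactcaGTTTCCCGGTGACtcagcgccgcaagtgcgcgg
Gm15751: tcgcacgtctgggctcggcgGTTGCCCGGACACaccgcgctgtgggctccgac
9130204K15Rik: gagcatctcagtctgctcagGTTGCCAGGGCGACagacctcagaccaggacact
1700001G11Rik: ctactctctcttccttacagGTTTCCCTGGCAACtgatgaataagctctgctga
Gm16760: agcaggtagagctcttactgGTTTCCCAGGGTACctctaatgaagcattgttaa
Gm13055: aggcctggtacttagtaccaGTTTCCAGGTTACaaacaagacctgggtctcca
Gm10433: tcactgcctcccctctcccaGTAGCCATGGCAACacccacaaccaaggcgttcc
G730013B05Rik: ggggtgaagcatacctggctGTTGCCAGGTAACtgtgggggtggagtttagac
Gm13648: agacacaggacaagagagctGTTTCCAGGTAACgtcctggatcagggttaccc

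Among the 42 members with an X-box pair, the spacer was 2 bases in 22, 1 base in 14, 0 bases in 4 and 3 bases in 2. The middle member of this class had its pair 18 bp from the summit. In 23 of the 42 (54.8%, 39.9 to 68.8%) the pair lay within 20 bp of the summit, and over all peaks with a pair this share was 53.8%. These shares differed by less than the counting error. Of all members, 12.2% had a pair in their 200 bp (9.13 to 16.0%), against 10.6% of all peaks and 9.83% of the 4902 peaks within 1 kb of a protein-coding start. In windows of the same length 1 kb to either side of the members, 18 of 690 held a pair (2.61%, 1.66 to 4.09%). Around all 5479 annotated long noncoding RNA starts the share was 2.21% (1.85 to 2.63%). The share at the summits was thus above that of the surrounding DNA, but its interval included the share of all peaks. A single half-site GTTGCC, on either strand, was found in 28.1% of member summits and in 7.68% of their flanking windows, against 26.8% of all peaks. The members with the pair within 20 bp had from 34 to 334 reads, while members without a pair had up to 632. That at Gm15418 had 249 reads (fold enrichment 12.35), that at Gm15751 243 (23.8) and that at 9130204K15Rik 127 (17.65). Those at 1700001G11Rik, Gm16760, Gm13055 and Gm10433 had 113, 102, 93 and 84 reads. Over all 42 members with a pair the median was 81.5 reads, and over the 303 without one it was 78. With the strict X-box, the share was 8.12% in members (5.67 to 11.5%) and 6.42% in all peaks.

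The X-box shares were also counted by the place of the member. Of the 184 members outside protein-coding genes, 30 had a pair (16.3%, 11.7 to 22.3%). Of the 161 within a protein-coding gene, 12 had one (7.45%, 4.31 to 12.6%), and these intervals overlap slightly. With the strict X-box the shares outside and within were 10.9% and 4.97%. With the half-site GTTGCC they were close, at 28.8% and 27.3%. The whole peak list was not split in this way, so the difference cannot be called particular to members. The search was also made from the starts. Among long noncoding RNA starts more than 1 kb from a coding start, 272 had a strict X-box within 2 kb, and 61 of these had a member peak (22.4%, 17.9 to 27.7%). Of the 3748 starts without such a sequence, 320 had a member peak (8.54%, 7.69 to 9.48%). Most starts with the sequence had no member peak, and most starts with a member peak lacked it.

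**Figure D1:**
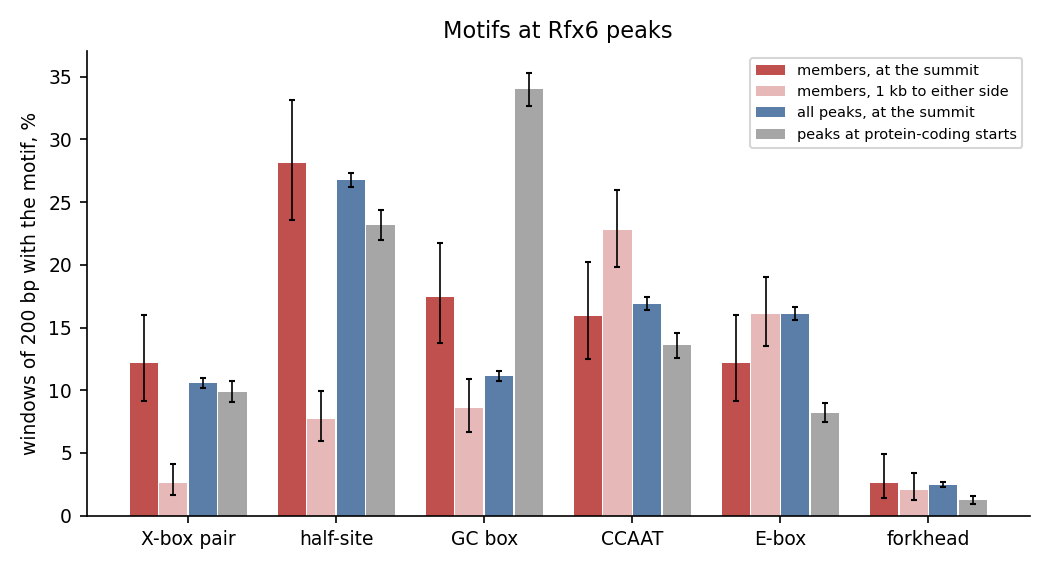
Share of 200-bp windows with each motif, in percent, at the summits of the 345 members, in windows 1 kb to either side of them, at all 23308 peaks and at the 4902 peaks within 1 kb of a protein-coding start. Bars carry 95% Wilson intervals, and the X-box pair and half-site bars of the members stand above those of their flanking windows and beside those of all peaks.

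The base composition of the members differed from that of the peaks at protein-coding starts. The GC box GGGCGG, the binding sequence of Sp1-like factors, was in 17.4% of members (13.8 to 21.7%) and in 11.1% of all peaks. It was in 34.0% of peaks at protein-coding starts and in 4.58% of the 17139 peaks more than 2 kb from both kinds of start. The ratio of observed to expected CpG dinucleotides in the 300 bp around the summit was at least 0.6, a level typical of CpG islands, in 71 members (20.6%, 16.6 to 25.2%). This share was 16.4% over all peaks, just below the members' interval, 64.3% at protein-coding starts and 2.76% away from both. Within 500 bp of the long noncoding RNA start it was 29.4% (22.5 to 37.3%), and farther out it was 14.4% (10.2 to 19.9%). Members at lincRNA genes had a GC box in 25.4% (18.9 to 33.1%) and those at processed_transcript genes in 11.8% (8.07 to 17.0%). In base composition the members thus lay between the peaks at coding starts and the peaks away from starts. The E-box CAGATG, a sequence bound by Neurod1-like factors, was in 12.2% of members (9.13 to 16.0%) and 16.1% of all peaks. The forkhead sequence TGTTTAC was in 2.61% of members and 2.45% of all peaks, and CCAAT in 15.9% and 16.9%. The cAMP response element TGACGTCA was in 1 member (0.29%) and in 0.287% of all peaks. The NRF1 palindrome was in 0 of the 345, with an upper Wilson limit of 1.1%, and in 0.0686% of all peaks. Neither count differs from the share of the whole list beyond counting error. These shares describe letters in the windows and not binding by the factors named.

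The strength of a peak is given by its reads, counted in the 3HA-Rfx6 library, and by its fold enrichment over the background of the peak caller. Members had between 28 and 632 reads, a median of 81 (95% interval of the median 72 to 90) and quartiles of 55 and 135 reads. The median was 73 reads over all peaks, 82 at protein-coding starts and 70 away from both kinds of start. The fold enrichment of the members ranged from 3.77 to 71.8 with a median of 9.42 (95% interval of the median 8.71 to 10.1), against 8.54 over all peaks. A fold enrichment of at least 10 was reached by 154 members (44.6%, 39.5 to 49.9%), and by 39.6% of all peaks and 42.1% of those at protein-coding starts. The intervals of the members' share and of their median reads just include the values of the whole list. The interval of their median fold enrichment lies above the median of all peaks, but it includes the 8.94 of peaks at protein-coding starts. At the read number that 10.1% of all peaks reach, 51 members were found (14.8%, 11.4 to 18.9%).

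The strongest member by reads was at Gm13562, a lincRNA gene (ENSMUSG00000086779.1) on the plus strand of chromosome 2. It had 632 reads (exact Poisson interval 584 to 683) and a fold enrichment of 29.42. Its summit lay 681 bp upstream of the nearest start, in an intron of a longer transcript of the same gene. It also lay 208 bp from the start of a transcript of a protein-coding gene that is not itself of the protein-coding type, and it is 1 of 16 members that are left out when every transcript of such genes counts as a coding start. At the same place the opposite strand carries a coding exon of Snapc4, which encodes a subunit of the complex that activates small nuclear RNA genes. No X-box pair or strict X-box was found in its 200 bp.

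The member with the highest fold enrichment was at Gm10044 (ENSMUSG00000072723.4), with 526 reads (482 to 573) and a fold enrichment of 71.79, a level reached by 0.03% of all peaks. Its summit lay 141 bp upstream of the start, on the strict X-box shown above. RefSeq lists this symbol as protein-coding, so the name long noncoding RNA rests on the GENCODE release used. Gm13562 and Gm10044 were the 2 members with the largest false discovery rate, 25.29%, which the peak caller gave to peaks of very high score, and 94.2% of members had a rate of at most 5%, against 95.1% of all peaks.

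The member at 9330175E14Rik, a lincRNA, came next by fold enrichment. It had 334 reads (299 to 372) and a fold enrichment of 43.33, and its summit lay within the X-box pair, in an exon 163 bp downstream of the start. The member at 1700016P03Rik followed with 209 reads (182 to 239) and a fold enrichment of 36.96. Of the 3 members with the highest fold enrichment, each thus had an X-box within 20 bp of its summit. The next 2 had neither pattern in their windows. They lay at 4930412M03Rik (394 reads, 35.07), in an intron of Rai1, which encodes a chromatin-associated regulator of transcription, and at Gm17196 (272 reads, 32.48), in an intron of Ccdc162. The summit at Gm17196 was 774 bp from the start of a transcript of a protein-coding gene that is not of the protein-coding type.

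The other members among the 10 with the most reads lay in varied surroundings. The summit at 9930014A18Rik (474 reads, fold enrichment 24.48) was in an exon of this lincRNA and in a coding exon of Fam84b. That at Gm13889 (409 reads, 20.95) was in an exon 586 bp downstream of the start. That at 1700027L20Rik (340 reads, 25.42) was in an exon 369 bp downstream, and RefSeq lists this gene and Gm13889 as protein-coding. The summits at Gm16268 (353 reads, 30.25) and 4930430J20Rik (340 reads, 27.31) were in introns. The latter is also in an intron of Lrp8, which encodes a receptor for reelin and apolipoprotein E. The summit at Gm13113 (441 reads, 26.13) was in a tandem repeat.

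The sequence at Gm13113 (chr4:154211993-154212113, plus strand) is shown with the 4 exact copies of a 12-base run in capitals. The part of the repeat in the read number was not tested.
Gm13113: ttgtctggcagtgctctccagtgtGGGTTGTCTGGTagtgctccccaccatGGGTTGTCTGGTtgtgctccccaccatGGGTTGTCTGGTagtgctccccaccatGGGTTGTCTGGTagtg
When this sequence was shifted by 27 bp, 89.4% of its bases matched themselves. At least 80% matched in 3 members and in 0.523% of all peaks, so few of the members were of this kind. At Gm16268, also among the 10 members with the most reads, 72.4% matched at a shift of 57 bp, below this bound.

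**Figure D2:**
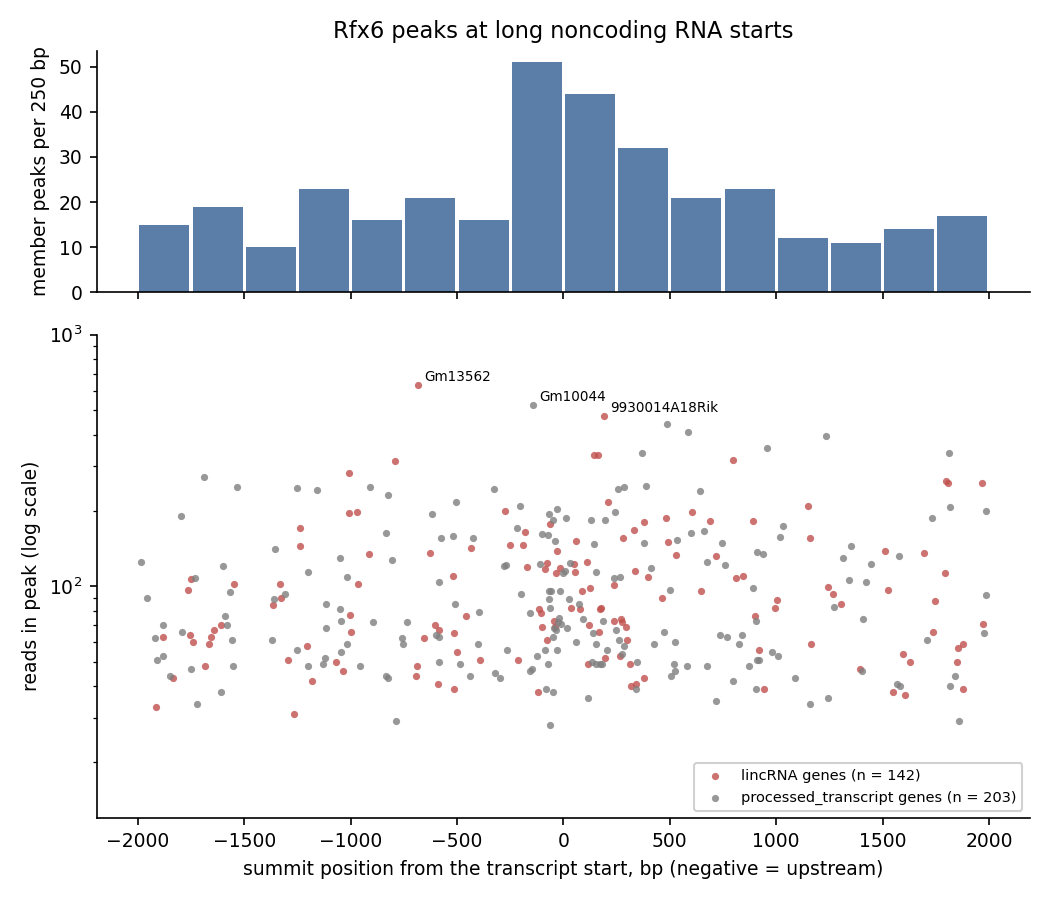
Position of the 345 member summits from the nearest long noncoding RNA start, in bp with upstream negative. The upper panel counts members per 250 bp, with 51 just upstream and 44 just downstream of the start; the lower panel gives the reads of each member on a log scale, by gene type, with the 3 highest named.

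The members gathered close to the start. The rule bounds the distance at 2 kb, and 143 summits lay within 500 bp (41.4%, 36.4 to 46.7%), 95 within 250 bp and 47 within 100 bp. The 250 bp upstream of the start held 51 summits and the 250 bp downstream 44, while the bins beyond 500 bp on either side held between 10 and 23. Upstream and downstream summits were about equal in number, with 171 and 174. The summit closest to a start preceded that of Gm16188 by 2 bp (113 reads, fold enrichment 11.53). The farthest were 1986 bp downstream, at transcripts of Wscd2 (200 reads, 31.43) and Gm17040 (92 reads, 9.73). RefSeq lists Wscd2 as protein-coding, and the summit there lay in an intron of the coding gene of that name. In 190 members the peak covered the start itself. These had a median of 102 reads and a median length of 1390 bp, against 64 reads and 1180 bp for the others. A longer peak covers a given point more easily, so these values are not independent of each other.

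The accumulation was also seen without the rule. Around the 2099 long noncoding RNA starts more than 10 kb from any coding start, there were 24.3 summits per 1000 starts in the first kilobase upstream and 35.3 in the first kilobase downstream. In the other kilobases out to 10 kb, the number was between 9.05 and 17.6. Around the 20735 protein-coding starts more than 10 kb from a long noncoding RNA start, the same 2 bins held 67.1 and 128.0 summits per 1000 starts, against 13.6 to 25.5 farther out. Both kinds of start had more summits than their surroundings, on both sides and most of all downstream, and the protein-coding starts had more than the long noncoding ones.

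**Figure D3:**
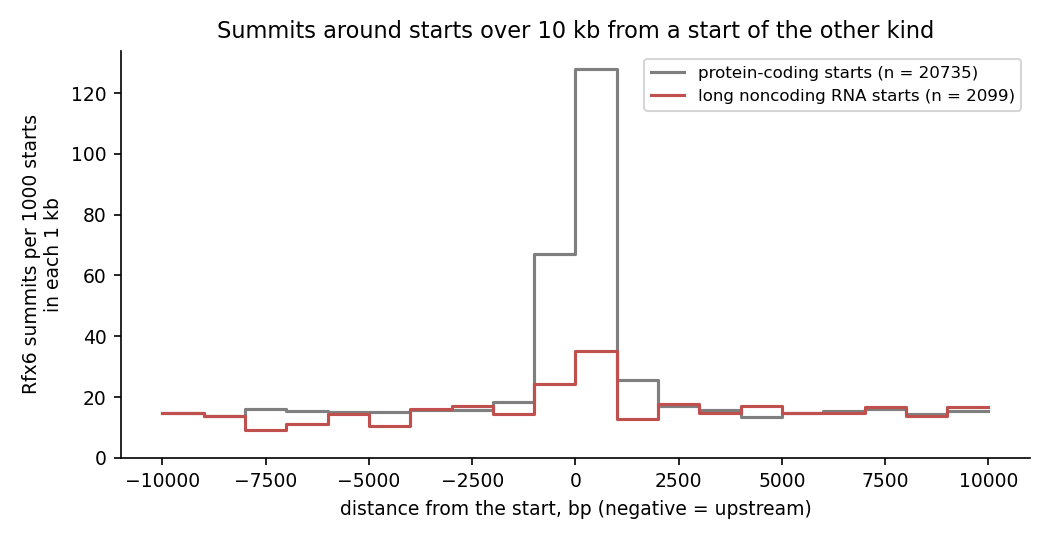
Rfx6 summits per 1000 starts in each kilobase from 10 kb upstream (negative) to 10 kb downstream, for 2099 long noncoding RNA starts and 20735 protein-coding starts, each more than 10 kb from a start of the other kind. The line of the long noncoding RNA starts rises to 24.3 and 35.3 beside the start, and that of the protein-coding starts to 67.1 and 128.0.

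By gene, 334 of the 3845 long noncoding RNA genes had a member peak within 2 kb of any of their starts (8.69%, 7.84 to 9.62%). The share was 10.8% of lincRNA genes (9.18 to 12.6%) and 7.66% of processed_transcript genes (6.69 to 8.75%). With peaks near coding starts included, 17.3% of long noncoding RNA genes had a peak, and 25.7% of protein-coding genes had one at this distance. Among the 2032 long noncoding RNA genes with no start within 10 kb of a coding start, the share with any peak was 8.76% (7.61 to 10.1%). Genes with many or widely spaced starts have more room for a peak, and the shares were not adjusted for it.

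At 17 genes, 2 members were found, and at none were there more. At most of those with the highest reads, 1 of the pair was much the stronger. At Gm13889 the members had 409 and 81 reads, at 1700027L20Rik 340 and 66, and at 2810410L24Rik 334 and 48. At G730013B05Rik they had 318 and 82 reads, and the X-box pair was at the weaker one. At Gm10425 they had 315 and 138 reads, and at Gm14486 207 and 49. Over all members, 195 had another Rfx6 summit within 10 kb (56.5%, 51.2 to 61.7%), against 46.6% of all peaks.

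Many members also lay in a protein-coding gene. The summit was in an intron of one in 129 members, in a coding exon in 18 and in a noncoding exon in 14, and 184 were in none. Of the 161 in a coding gene, 136 lay at a long noncoding RNA on the opposite strand (84.5%, 78.1 to 89.3%). The same share over all annotated long noncoding RNA starts in coding genes was not counted, so this value cannot be called particular to members. The nearest protein-coding start was between 1 and 2 kb away in 61 members, between 2 and 10 kb in 90 and farther than 10 kb in 194. For the members in coding genes, binding to the long noncoding RNA start and binding to the coding gene cannot be told apart from a summit.

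Members at genes that hold microRNAs were examined as a group, chosen after their values were seen. Of the 328 member genes, 17 hold a microRNA or small nucleolar RNA gene on their strand (5.18%, 3.26 to 8.14%), and so do 91 of all 3845 long noncoding RNA genes (2.37%, 1.93 to 2.9%). In 10 of the 17 the small RNA has a symbol beginning with Mir, and these genes had 11 members. Among the 10 is Mir196a-1, which has the same bounds as its microRNA and which RefSeq lists as a microRNA. It is thus the microRNA gene itself and not a longer transcript that holds it. Genes that hold a microRNA annotated under a clone name only had further members, with 353 reads at Gm16268, 170 at 4933406I18Rik, 85 at Gm3764 and 55 at Dleu2. The mature microRNAs of 4 of the genes fall into seed families, and are shown for that reason as RefSeq gives them, with the seed, bases 2 to 8, in capitals. The seed AACAGUC is shared within the Mir132 and Mir212 pair of 1700016P03Rik. The seeds AACACUG and AAUACUG each occur at both Gm15884 and Gm13648, and AGCACCA is shared by the products of A330023F24Rik.
miR-132-3p: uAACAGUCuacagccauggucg
miR-212-3p: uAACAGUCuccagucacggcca
miR-141-3p: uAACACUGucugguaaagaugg
miR-200a-3p: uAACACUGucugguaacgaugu
miR-200b-3p: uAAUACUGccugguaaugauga
miR-200c-3p: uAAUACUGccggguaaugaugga
miR-429-3p: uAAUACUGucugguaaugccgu
miR-29b-3p: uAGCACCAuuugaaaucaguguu
miR-29c-3p: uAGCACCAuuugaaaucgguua

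The strongest of the 11 members was at 1700016P03Rik, whose primary transcript holds Mir212 and Mir132, microRNAs known to be induced by neuronal activity. Its summit, at position 74987210 of chromosome 11, lay within the annotated Mir132 gene (chr11:74987167-74987267, plus strand), 230 bp beyond the end of Mir212. The X-box pair printed above occupies chr11:74987177-74987190. The 5′ arm of the same hairpin, miR-132-5p, begins within it.
miR-132-5p: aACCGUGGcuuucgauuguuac
By sequence match it occupies chr11:74987188-74987209, so the last 3 bases of the X-box pair are the first 3 of this mature microRNA. The summit was 1148 bp downstream of the nearest annotated start of 1700016P03Rik.

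Both loci of the miR-200 family, microRNAs known to maintain the epithelial state, had a member. The member at Gm15884, which holds Mir200c and Mir141, had 132 reads (exact Poisson interval 110 to 157) and a fold enrichment of 23.8. Its summit was 662 bp beyond the end of Mir141 and 1579 bp downstream of the start of the transcript. The member at Gm13648, which holds Mir200b, Mir200a and Mir429, had 34 reads (23.5 to 47.5) and a fold enrichment of 6.36. Its summit lay on an X-box pair 5773 bp upstream of Mir200b and 1721 bp upstream of the annotated start. The intervals do not overlap, and the weaker peak was the one with the X-box pair.

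The member at A330023F24Rik, which holds Mir29b-2 and Mir29c, had 69 reads and a fold enrichment of 11.3. Its summit was 100 bp upstream of the start and 19741 bp upstream of Mir29b-2. The miR-29 family is known to silence the monocarboxylate transporter gene Slc16a1 in β cells. The member at 2210403K04Rik, which holds Mir22, had 124 reads (fold enrichment 10.78), and its summit lay 30 bp downstream of the start. It was also 41 bp from the start of a transcript of a protein-coding gene that is not of the protein-coding type. Lower down were the members at Mir196a-1 with 114 reads, Gm2044 (Mir202) with 82, E130102H24Rik (Mir101a) with 62 and A930011O12Rik (Mir124a-1) with 44. At Ttc28, which holds Mir701, the members had 156 and 81 reads but lay more than 222 kb beyond the microRNA. RefSeq lists Ttc28 as protein-coding, and its members are counted among the 11. Of the 11 members, 7 had reads at or above the median of all members.

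**Figure D4:**
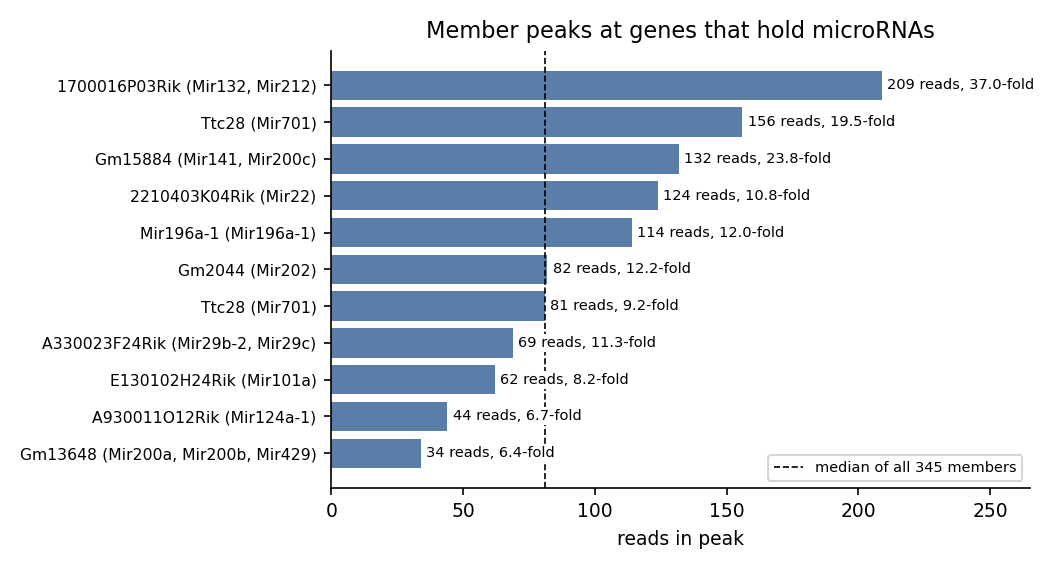
Reads of the 11 members at genes of the rule that hold a microRNA gene with a Mir symbol, each with its fold enrichment. The gene Mir196a-1 has the same bounds as its microRNA. The dashed line is the median of all 345 members, 81 reads, and the peak at the Mir132 and Mir212 gene is the highest of the 11 with 209.

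Long noncoding RNAs with an established name were looked up from a list. Of 52 such RNAs, 22 are annotated in the release used and 3 had a member (13.6%, 4.75 to 33.3%), an interval that includes the 8.69% of all long noncoding RNA genes. Miat, a lincRNA of nuclear bodies, had members of 78 reads (61.7 to 97.3) and 47 reads (34.5 to 62.5), and the first was 106 bp upstream of the start. Nctc1, a noncoding transcript near H19 and Igf2, had a member of 61 reads, and Dleu2, from which miR-15a and miR-16-1 are cut, 1 of 55 reads. Of 33 listed hosts of small RNAs, 13 are annotated and 2 had a member (15.4%, 4.33 to 42.2%), Dleu2 and Snhg12, the latter with 31 reads (21.1 to 44.0). The reads of these 5 members were all below the median of all members. RefSeq gives 31 members a symbol other than that of the release, and the 5 do not cover these. Among them, 2810011L19Rik (Tunar, 198 reads), 9430008C03Rik (Snhg17, 150) and 2210403K04Rik (Mir22hg, 124) were above that median. Gm13336 (Ptf1aos, 51) and Gm17566 (Prox1os, 46) were below it.

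The nearest protein-coding gene was 1 of 42 listed islet and pancreas transcription factors in 5 members (1.45%, 0.621 to 3.35%), at 4 of the factors, and in 0.493% of all peaks. The 5 members include 2 at the same factor. The member at 2610307P16Rik, whose nearest coding start was that of Sox4, an HMG-box factor of endocrine differentiation, had 73 reads and a fold enrichment of 12.24, but that start was 65.5 kb away. The member at Gm17325 had 69 reads and a fold enrichment of 4.47. Its summit was 40 bp upstream of the start, in a noncoding exon of Cerkl. It was 2631 bp from a start of Neurod1, which encodes a factor required in β cells. Gm13336 and Gm13344 had members of 51 and 46 reads, 2919 and 14203 bp from the start of Ptf1a, a factor of the early pancreas and acinar cells. Gm17566 had 46 reads, in an intron of the homeobox gene Prox1. Their reads were all below the median of the members. A summit near 2 genes does not say which of them, if any, it acts on.

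At the bounds of the rule, the ranges of reads overlapped. The 10 members in the last 100 bp inside the 2 kb had a median of 80.5 reads (33 to 258), and the 17 peaks in the next 100 bp outside had a median of 104 (43 to 226). The 9 members within 100 bp beyond the 1 kb kept from coding starts had a median of 123 reads (49 to 258), and the 11 peaks at most 100 bp inside it had 92 (36 to 375).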

How the data were processed

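Anti-HA ChIP-seq was sequenced from 3HA-Rfx6 transfected and control Min6b1 cells, 1 library each, as single reads of 50 bases. The submitters' processing notes name CASAVA 1.8.2, Bowtie, MACS 1.4.2 and the build mm9. The deposited file is the MACS peak list of the 3HA-Rfx6 library. Its header gives 49443917 reads (68.7% retained) and, for the control, 16911298 (21.1% retained), or 9.52 times as many retained reads in the ChIP, a fragment size of 234 bp and a p-value cutoff of 1e-05. For each peak the authors deposited the count of reads, without normalization, the fold enrichment (a ratio to the expected background), a score that is the log10 p-value times minus 10, and the false discovery rate in percent from exchanging ChIP and control. The shallow control limits the precision of the last 3.

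Summits (start plus offset minus 1) were compared with GENCODE M1 on NCBIM37, and all 23308 peaks end inside their chromosomes. A protein-coding start was that of a transcript of that type. Motifs were searched on both strands in 200 bp around the summit. Shares have 95% Wilson intervals and reads exact Poisson intervals, which cover counting error only. Peaks of 1 library are not replicates, so no test was made. Named are the genes of the 10 members with the most reads and the 5 with the highest fold enrichment, up to 10 with an X-box pair within 20 bp of the summit and up to 6 with 2 members, those on lists of known long noncoding RNAs, small RNA hosts and islet factors, and those nearest to and farthest from a start. The members, lists and rules were chosen with earlier results of these data known. RefSeq (GRCm38.p6) gave gene types by symbol and mature microRNAs, for 14 of 15 microRNA genes, and none of its coordinates was used. Intervals came from scipy 1.17.1, figures from matplotlib 3.10.9 and tables from pandas 2.3.3 (numpy 2.4.6, Python 3.11.15). The searches were tested on simulated sequences. Alternatives were other distances, gene types, coding-start definitions, peak sets, peak positions, X-box patterns and thresholds. Expression and the control's own signal were not analysed here.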

Additional observations from a re-analysis of the deposited data

How the results depend on the processing

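The 7 main values were recomputed under alternatives. Of 65 values of shares and medians, 46 stayed inside the interval of the main one, and 5 of 10 numbers of members were within 1.5 times the main number, among them 284 with coding starts kept 2 kb away and 329 with every transcript of a protein-coding gene. The number of members was 224 with 1 kb from the start, 733 with 5 kb, 145 with lincRNA genes only, 196 in the 50% of peaks with the highest scores and 154 with a fold enrichment of at least 10. The share with a fold enrichment of at least 10 was 76.5% in the higher-scoring peaks, and at thresholds of 8 and 20 it was 61.2% and 11.6%. In those 2 stricter peak sets the median reads were 124 and 140, and the median fold enrichments 12.4 and 14.8. The X-box share was 8.12% with the strict pattern, 28.1% with the half-site and 8.41% in 100 bp. The share of genes was 5.75% at 1 kb, 15.9% at 5 kb, 7.02% with coding starts kept 2 kb away, 10.8% for lincRNA genes, 5.1% in the higher-scoring peaks and 3.95% with a fold enrichment of at least 10. The share within 500 bp was 63.8% of members within 1 kb and 19.5% of those within 5 kb, and 27.5% lay within 250 bp. These moves follow from the narrower or wider sets, patterns and thresholds. An alternative chosen after seeing the data left out the 25 members whose genes RefSeq lists as protein-coding, which kept 320 members, of which 43.1% reached a fold enrichment of 10 and 12.5% had an X-box pair. No paired analysis was possible because each condition has a single library, and no replicate could be left out for that reason.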

Other observations

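Several members outside the naming rule lay beside genes with a known part in insulin signalling, secretion or development. They were picked after their values were seen, so they are examples and not a group. The member at 9530052E02Rik had 261 reads and a fold enrichment of 21.66, and its summit was 1192 bp from the start of Irs2, which encodes an insulin receptor substrate. The member at Gm12339 had 247 reads and a fold enrichment of 30.6, and lay in an intron of Doc2b, which encodes a calcium sensor of exocytosis. At BC042782 the summit (230 reads, fold enrichment 9.89) was in the coding exon of Jun. At loci of developmental regulators, there were 186 reads at RP24-276N7.2 by Hmx1, 141 at Gm20466 by Nkx2-9, 121 at Gm13205 by Casz1, 109 at AI646519 in Pax1, 67 at Dlx1as and 50 at Hoxa11as.

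Chromosomes 2, 4 and 11 held 163 of the 345 members (47.2%, 95% Wilson interval 42.0 to 52.5%), 24.7% of all peaks and 1524 of the 3845 annotated long noncoding RNA genes (39.6%). They are the chromosomes with the most members (60, 54 and 49) and also with the most of these genes. The interval does not cover that choice.

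By symbol or synonym, 216 members matched a RefSeq gene. RefSeq lists 185 of these as long noncoding RNA and 25 as protein-coding, the latter including Gm10044, Gm13889 and 1700027L20Rik, all among the 10 members with the most reads.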
